A study of Mus musculus with 11 samples.

Results

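Chromatin accessibility was measured at the genes of 43 NF-κB proteins in mouse haematopoietic stem cells (HSCs), sorted from bone marrow. The set holds the NF-κB subunits, their IκB inhibitors, the receptors, adaptors, kinases and ubiquitin-editing enzymes that turn the pathway on and off, and a few genes that tumour necrosis factor induces. Its members were chosen by gene symbol: every peak that the authors' annotation assigned to the gene identifier of a member was taken. This gave 324 of the 94410 peaks, 69 at promoters (within 3 kb of the assigned start site) and 255 elsewhere, and all 43 symbols had at least 1 peak among the 20810 genes with one. The rule used symbols and no measured value, though the list of symbols was drawn up with earlier results of these data known.

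The assay was ATAC-seq, in which a transposase cuts and tags open DNA, so that the count of fragments over a peak reflects how accessible the site was. All 11 libraries came from mice of the genotype Gfplc3/Gfplc3, which carry GFP fused to the autophagosome protein LC3, and all HSCs were isolated at steady state, with no agent given. There were 5 libraries of young HSCs that were not fractionated, 3 of old AThi HSCs (low GFP, the fraction labelled as engaging autophagy) and 3 of old ATlo HSCs (high GFP, labelled as not engaging it). The sources used here give neither an age in numbers nor the day of each library, and 2 isolation days are named, so age group, fractionation and day cannot be told apart in the comparisons with young HSCs. The labels do not say how many animals stand behind a library, and p-values measure only the spread between libraries, which may in part be technical.

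NF-κB is a family of dimeric transcription factors that wait in the cytoplasm, bound by IκB proteins. Signals from Toll-like receptors, TNF receptors and antigen receptors pass through adaptors and ubiquitin ligases to the kinase TAK1 and the IκB kinases, which mark IκB for degradation and release the dimer to the nucleus. The dimers bind κB sites, and among their targets are genes of the pathway's own inhibitors, such as Nfkbia and Tnfaip3, which end the response. In HSCs the pathway carries inflammatory signals that can push quiescent cells into cycle and towards myeloid output.

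Promoter DNA is shown for 6 of the 13 members whose windows hold letters that match the κB consensus, the kind of site that NF-κB binds. The 6 include every member with both a match and a promoter peak called lower. Bcl3, Map3k7, Nfkbid, Nfkbie, Tlr2, Tnip1 and Traf3, with a match and no promoter peak called, are not shown. The choice of the 6 therefore does not link matches with lower promoters. Each sequence is the 250 bases upstream of a start site in RefSeq (GRCm38.p6), 5′ to 3′ on the gene's strand, with matches to the κB consensus on either strand in capitals. Rel encodes the subunit whose promoter peak was called lower in both old fractions, Tnfaip3, Cyld and Bcl10 encode regulators with a promoter peak called lower in 1 of them, and Nfkbia and Nfkb2 had promoter peaks that were not called. The windows lie at chr11:23770970-23771219 (Rel, minus strand), chr10:19015411-19015660 (Tnfaip3, minus), chr8:88696778-88697027 (Cyld, plus), chr3:145924012-145924261 (Bcl10, plus), chr12:55492648-55492897 (Nfkbia, minus) and chr19:46304487-46304736 (Nfkb2, plus, the first of its windows).
Rel: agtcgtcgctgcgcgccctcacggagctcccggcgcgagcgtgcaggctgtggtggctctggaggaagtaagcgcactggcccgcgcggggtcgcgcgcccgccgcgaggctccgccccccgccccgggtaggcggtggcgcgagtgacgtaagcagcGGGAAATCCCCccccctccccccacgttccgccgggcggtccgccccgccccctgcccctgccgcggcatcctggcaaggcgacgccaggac
Tnfaip3: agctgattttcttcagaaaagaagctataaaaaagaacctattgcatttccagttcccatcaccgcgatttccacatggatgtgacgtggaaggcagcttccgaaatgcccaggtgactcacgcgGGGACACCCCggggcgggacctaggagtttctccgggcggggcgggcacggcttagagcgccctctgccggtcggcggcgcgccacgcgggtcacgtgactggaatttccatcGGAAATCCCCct
Cyld: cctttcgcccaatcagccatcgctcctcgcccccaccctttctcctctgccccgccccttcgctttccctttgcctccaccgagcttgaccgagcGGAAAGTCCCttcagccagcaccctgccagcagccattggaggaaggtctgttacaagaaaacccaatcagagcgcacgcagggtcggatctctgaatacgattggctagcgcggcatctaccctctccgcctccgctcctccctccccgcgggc
Bcl10: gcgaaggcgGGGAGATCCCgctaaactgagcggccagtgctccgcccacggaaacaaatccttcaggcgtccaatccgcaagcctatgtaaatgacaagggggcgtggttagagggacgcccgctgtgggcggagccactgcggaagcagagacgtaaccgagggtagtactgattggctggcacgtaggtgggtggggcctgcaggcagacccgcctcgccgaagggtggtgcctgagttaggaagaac
Nfkbia: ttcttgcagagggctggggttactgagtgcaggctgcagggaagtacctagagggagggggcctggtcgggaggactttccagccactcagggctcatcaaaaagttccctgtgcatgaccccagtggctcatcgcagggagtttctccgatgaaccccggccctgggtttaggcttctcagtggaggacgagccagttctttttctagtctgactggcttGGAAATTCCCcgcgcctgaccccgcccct
Nfkb2: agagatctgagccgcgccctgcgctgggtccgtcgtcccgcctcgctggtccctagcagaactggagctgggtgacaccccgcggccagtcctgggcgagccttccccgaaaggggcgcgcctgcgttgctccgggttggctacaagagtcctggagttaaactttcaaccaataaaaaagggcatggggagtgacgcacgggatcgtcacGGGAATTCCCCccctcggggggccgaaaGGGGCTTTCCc

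In Rel the match ran from 92 to 82 bases before the start, and in Nfkbia from 29 to 20. Tnfaip3 held one match at 125 to 116 and another at 12 to 3 bases before the start. Cyld had its match at 155 to 146 and Bcl10 at 241 to 232. RefSeq windows of 300 bases (250 before and 50 after a start) were matched by symbol for 35 members, and not for Ikbkb, Malt1, Nfkb1, Nfkbiz, Relb, Tab1, Tlr4 and Tnfaip8. The κB consensus was searched on both strands, where a palindromic site matches on each and neighbouring matches can overlap. It was present for 13 of the 35 members (37.1%) and for 1388 of 27025 genes in the table (5.14%), or, counted by window, in 15 of 43 (34.9%) and 1480 of 32851 (4.51%). A match says only that these letters are present, and no binding was measured. Among members with a promoter peak, the median log2 change of the strongest one was -0.12 in old AThi and -0.25 in old ATlo HSCs for the 13 with a match, and -0.20 and -0.35 for the 21 without, in the authors' deposited tables. Of those with a match 2 (AThi) and 3 (ATlo) were called lower, and of those without 3 and 3.

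The deposited tables give each peak a mean normalised count over all 11 libraries and, for each pair of groups, a log2 change with its standard error (SE), a Wald p-value and a Benjamini-Hochberg adjusted p. They hold no value for a single library, so levels below are means over all libraries and errors are SEs of the log2 change. A peak is called where the adjusted p is under 0.05. As a check of the cell type, 9 of 10 HSC markers had a promoter peak (all but Ly6a). These promoter peaks had mean normalised counts from 28.6 (Slamf1) and 77.1 (Procr) to 342 (Kit) and 414 (Mecom). Against young HSCs those of Gata2 (log2 changes 0.90 and 0.56) and Fgd5 (0.79 and 0.59) were called higher in AThi and ATlo, that of Meis1 lower (-0.41 and -0.44), and those of Mecom (-0.50) and Kit (-0.51) lower in ATlo, whose part in the results below was not tested. Promoter peaks of 3 of 4 B cell markers reached 13.7 to 56.0, that of 1 of 4 T cell markers (Cd4) 6.55, those of 4 of 6 mature myeloid markers 12.6 to 64.7, and those of 2 of 4 erythroid markers 74.7 and 227 (Klf1). No promoter peak was listed for S100a8, S100a9, Hba-a1 or Hbb-bs. None of these B, T, myeloid and erythroid promoter peaks was called against young HSCs. All 4 endothelial and stromal markers had a promoter peak (28.2 to 130), and that of Cxcl12 was called higher in both old fractions, by 1.27 and 0.97 on the log2 scale, and its part was not tested either.

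At NF-κB promoters, old AThi HSCs had a few peaks that were lower than in young HSCs and a single one that was higher. Rel, Birc3, Ripk1, Cyld and Icam1 fell at their main promoter peak, by 0.39 to 0.57 on the log2 scale, which is about 0.675 to 0.764 times the young level. The promoter peak that rose lay 2919 bp from the start of Tnfaip3. Thus 5 of 69 member promoter peaks were called lower, where 4.42% of all promoter peaks were, and 1 of 69 higher, where 7.08% of all were, in the authors' deposited table. Taking only the strongest promoter peak of each gene, 5 of 42 members were called lower against 4.84% of 16335 genes, and 0 of 42 higher against 8.05%. No called member promoter reached a 2-fold change in this comparison.

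Old ATlo HSCs showed lower promoter peaks at Rel, Birc3 and Ripk1 as well as at Tnfaip3, Bcl10, Tab1, Tab2 and Tnfaip8. Of the 69 member promoter peaks 8 were called lower, where 5.95% of all promoter peaks were, and 1 higher (the same Tnfaip3 peak), where 5.67% were, in the authors' deposited table. By strongest promoter peak, 7 of 42 members were called lower against 7.31% of all genes, and 0 of 42 higher against 6.26%. Both comparisons use the same 5 young libraries, so their likeness is not independent evidence.

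Under the authors' scaling, values below 0 were spread over most members and not limited to the called ones. The strongest promoter peak had a log2 change below 0 for 35 of 42 members (83.3%) in AThi and for 35 of 42 in ATlo, where 62.8% and 67.6% of all genes did. Its median was -0.19 over members and -0.11 over all genes in AThi, and -0.34 and -0.16 in ATlo, in the authors' deposited tables and on their scaling. Strong promoters as a class were lower in old HSCs on that scaling. The median of the members' mean normalised counts was 256.6 (62.6 for Tnf to 673 for Malt1), against 139 for all genes. The part of promoter strength in the members' values was not tested. Among genes at or above the median promoter level, the median log2 change was -0.21 for 36 members and -0.18 for all 8167 genes in AThi, and -0.35 and -0.25 in ATlo. Of these, 5 members (13.9%) and 7.15% of all genes were called lower in AThi, and 7 members (19.4%) and 12.8% of all in ATlo. In the strongest 10% of promoter peaks the members' median was -0.21 against -0.22 for all in AThi, and -0.37 against -0.30 in ATlo. Counted from the median of that strongest 10%, the median over each gene's strongest promoter peak was 0.03 for members and 0.10 for all genes in AThi, and -0.04 and 0.14 in ATlo. This reference moves every peak alike, so the gap between members and all genes is the same. With it 0 of the 69 member promoter peaks were called lower in either comparison. Of all promoter peaks only 0.77% (AThi) and 0.24% (ATlo) were then called lower, so the members' 0 is near the share of all.

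**Figure D1:**
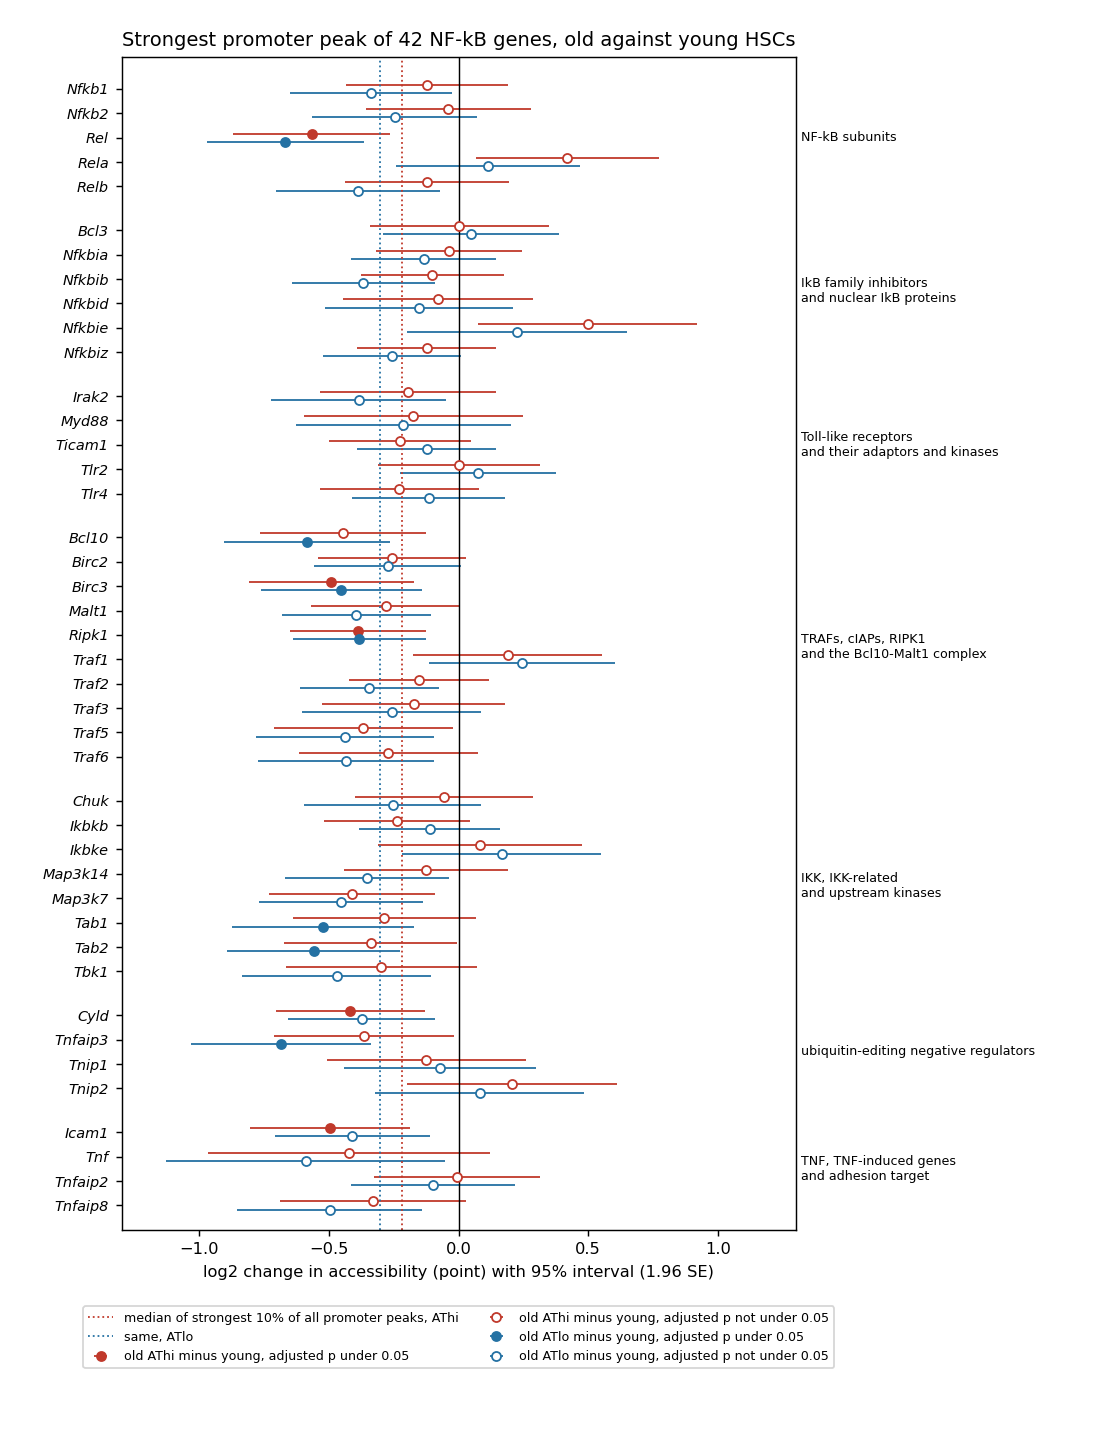
Log2 change in accessibility (x axis, with 95% intervals of 1.96 SE) at the strongest promoter peak of each of 42 members, grouped by role (y axis), for old AThi (red) and old ATlo (blue) against young HSCs, with filled points where the adjusted p is under 0.05. In each comparison 35 of 42 points lie left of 0 under the authors' scaling, and the dotted lines mark the median of the strongest 10% of all promoter peaks, at -0.22 and -0.30, around which the members scatter.

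Away from promoters the picture was mixed, with strong gains at single distal sites. In old AThi HSCs 16 of 255 other member peaks were called higher, near the 7.53% of all such peaks, and 10 lower, where 2.14% of all were, in the authors' deposited table. In ATlo 14 were called higher, where 7.09% of all other peaks were, and 5 lower, where 1.38% were. The peaks that rose had a median log2 change of 1.37 in AThi and 1.28 in ATlo, against 1.28 and 1.26 for all other peaks that rose. Their median levels were 38.4 and 44.4, against 36.0 and 34.1 for all other peaks that rose and 21.7 for all other peaks. Of these member peaks 13 of the 16 and 11 of the 14 changed at least 2-fold. The share of 2-fold changes over all other peaks that rose was not counted. The medians of all those peaks, 1.28 and 1.26 on the log2 scale, were also above a 2-fold change. The 10 peaks that fell in AThi had a median of -0.72, against -1.08 for all other peaks that fell. Over all 255 other peaks the members' median was -0.13 in AThi and -0.09 in ATlo, against -0.01 and 0.01 for all other peaks, and it turned positive, to 0.09 and 0.21, when counted from the strongest 10% of promoters. The same reference moved the median of all other peaks to 0.20 and 0.31, and with it 8 of the 10 member peaks called lower in AThi and 3 of the 5 in ATlo lost their call.

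The authors' annotation gives a peak to the gene with the nearest start site, which at a distance may not be the gene it acts on. Of the 255 other peaks 157 were distal intergenic, 74 intronic, 14 exonic, 3 in a 5′ UTR and 7 in a 3′ UTR. Of the 88 in an intron or exon 60 lay in the body of the assigned member and 28 in another gene, and 47 other peaks lay beyond 100 kb. Members had a median of 6 peaks, against 3 for all genes, led by Map3k7 with 31, Tab2 with 23, Nfkb1 with 22 and Nfkbiz with 19. At least 1 called peak was found for 22 members (51.2%) in AThi and 20 (46.5%) in ATlo, where 31.7% and 29.9% of all genes had one, and 19 of 43 had none in either. Among genes with at least 6 peaks, 15 of 22 members (68.2%) had one in each comparison, where 60.3% (AThi) and 55.4% (ATlo) of 5537 genes did.

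**Figure D2:**
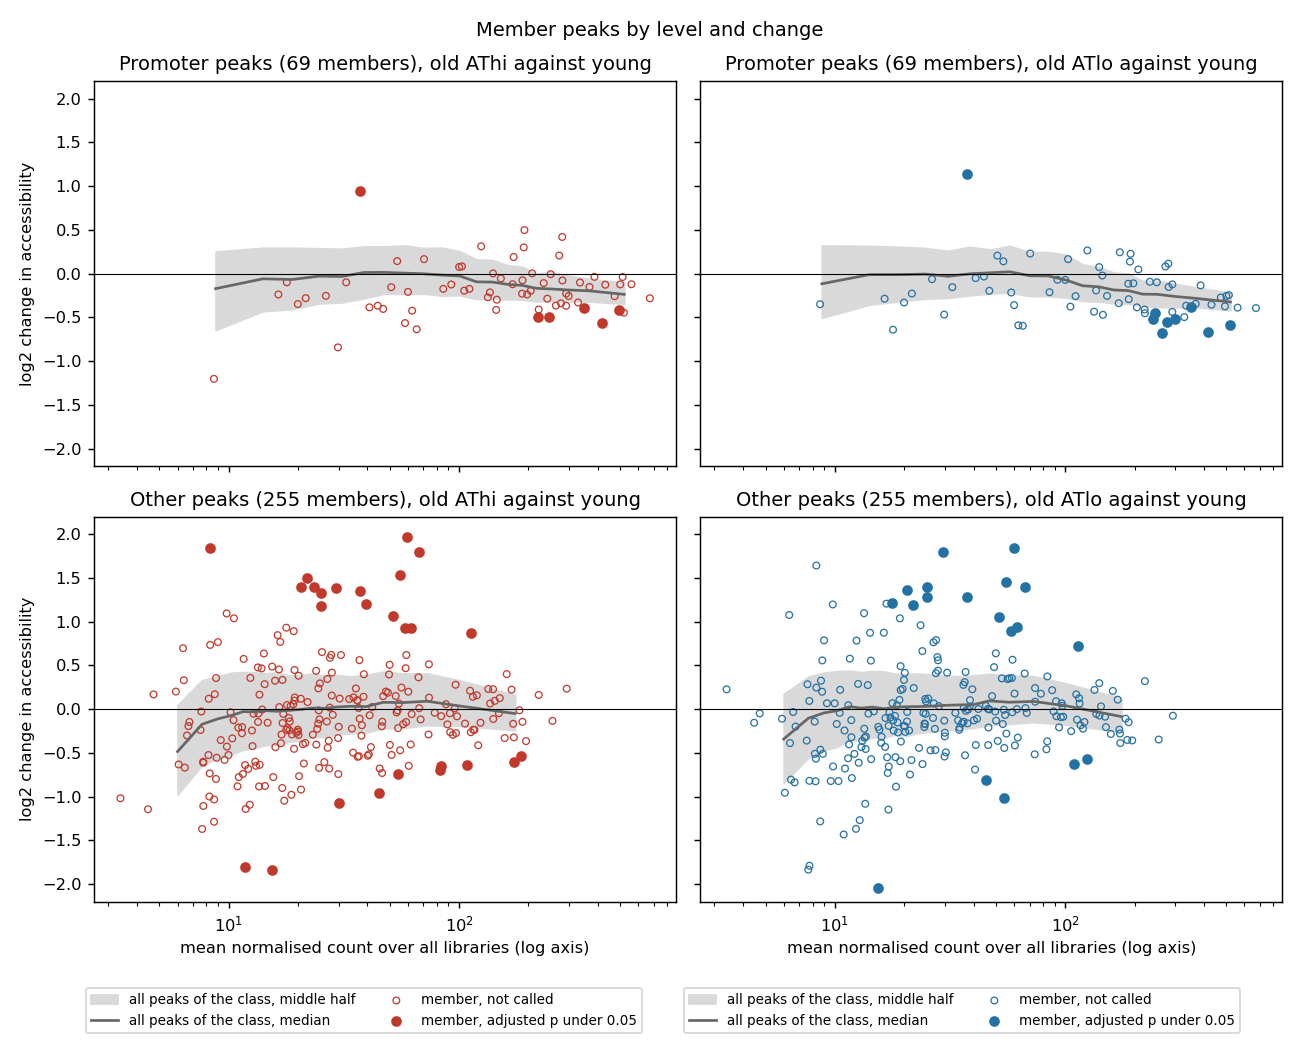
Log2 change against young HSCs (y axis) by mean normalised count over all libraries (x axis, log scale) for member promoter peaks (upper panels, 69) and other member peaks (lower panels, 255), with filled points called at an adjusted p under 0.05. The grey line and band give the median and interquartile range of all peaks of the same class, which bend below 0 at strong promoters, where the member promoters called lower sit, while the Tnfaip3 promoter peak called higher is at a level of 37.3. Gains at other peaks come at levels of 8.31 to 113.

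**Figure D3:**
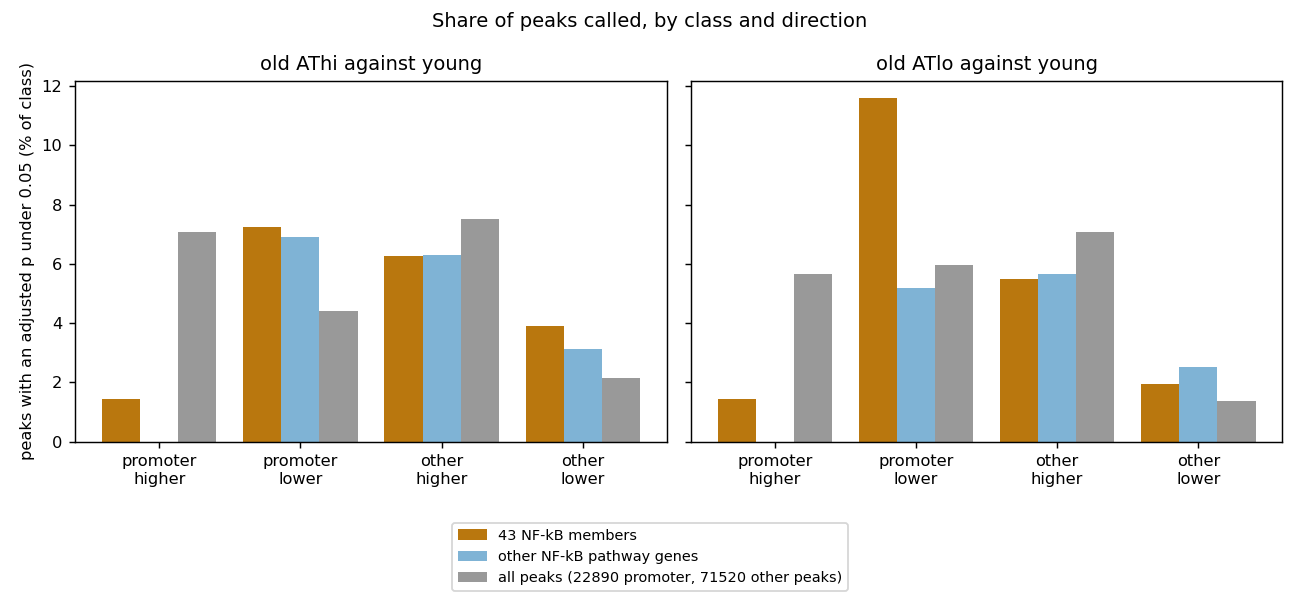
Share of peaks with an adjusted p under 0.05 (y axis, % of the class) by class and direction, for the 43 members, 45 other NF-κB pathway genes and all peaks. Member promoters called higher made up 1.45% of 69 in both comparisons, against 7.08% and 5.67% of all promoter peaks under the authors' scaling.

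Among the 5 subunit genes, Rel was the one whose main promoter peak was called. It was 1 of the group's 7 promoter peaks, where 4.42% (AThi) and 5.95% (ATlo) of all promoter peaks were called lower. Rel encodes c-Rel, a transactivating subunit best known from lymphocytes. Its promoter peak at chr11:23720082-23721991 (mm39, level 419) fell by 0.57 on the log2 scale (SE 0.16, 95% interval -0.87 to -0.26, adjusted p = 0.00505) in AThi in the authors' deposited table. In the ATlo fraction it fell by 0.67 (SE 0.15, adjusted p = 0.000562), and counted from the strongest 10% of promoters the changes were -0.35 (adjusted p = 0.124) and -0.36 (adjusted p = 0.0880). The other subunit promoters were not called in the authors' deposited tables. Rela, for the main transactivating subunit p65, had a log2 change of 0.42 (SE 0.18) in AThi and 0.11 (SE 0.18) in ATlo. Nfkb1, which encodes p105 and its product p50, had -0.12 (SE 0.16) and -0.34 (SE 0.16). The genes of the non-canonical arm, Nfkb2 (p100 and p52) and Relb, were among the strongest promoters of the set at levels of 513 and 560. Nfkb2 had -0.04 and -0.25 and Relb -0.12 and -0.39, each with an SE of 0.16.

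Rel and Nfkb1 also had changed peaks away from their promoters. Of the 31 other peaks of the subunit genes 2 were called higher and 1 lower in AThi, and 1 higher and 1 lower in ATlo. Of all other peaks 7.53% were called higher and 2.14% lower in AThi, and 7.09% and 1.38% in ATlo. A distal peak 11.1 kb upstream of Rel (chr11:23732034-23732466, level 21.9) rose by 1.50 (SE 0.37, adjusted p = 0.00157) in AThi and 1.19 (SE 0.38, adjusted p = 0.0223) in ATlo in the authors' deposited tables, opposite in direction to the promoter. In intron 6 of Nfkb1, the peak 37.8 kb from the start (chr3:135359141-135359551) rose by 1.40 (SE 0.36, adjusted p = 0.00204) in AThi and had 0.96 (SE 0.36, adjusted p = 0.0712) in ATlo. In the same intron, the peak at 62.3 kb (chr3:135334147-135334991) fell by 0.96 (SE 0.27, adjusted p = 0.00696) in AThi and by 0.81 (SE 0.25, adjusted p = 0.0204) in ATlo.

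The 6 IκB genes had no called promoter peak among 12 in either comparison, while Bcl3 and Nfkbiz gained a distal peak. Of all promoter peaks 7.08% were called higher and 4.42% lower in AThi, and 5.67% and 5.95% in ATlo. With only 12 peaks, no call is not far from those shares. The median log2 change of their strongest promoter peaks was -0.06 in AThi and -0.14 in ATlo in the authors' deposited tables. Nfkbia encodes IκBα, the fast-induced inhibitor, and its promoter (level 387) had -0.04 (SE 0.14) and -0.13 (SE 0.14). Nfkbib, for IκBβ, had -0.10 and -0.37, and Nfkbid and Bcl3 lay between -0.15 and 0.05. Nfkbie, for IκBε, had the highest log2 change of the 42 strongest promoter peaks in AThi, 0.50 (SE 0.22, adjusted p = 0.131), with 0.23 (SE 0.22, adjusted p = 0.599) in ATlo, and was not called. Bcl3 encodes a nuclear IκB protein that joins p50 or p52 dimers on DNA. A peak 9.0 kb upstream of it (chr7:19565689-19566352, level 59.7) gave the smallest p of any member peak: it rose 3.91-fold in AThi (log2 change 1.97, SE 0.24, adjusted p = 1.75e-13) and 3.60-fold in ATlo (1.85, SE 0.24, adjusted p = 7.18e-12). Its promoter peak, by contrast, had 0.00 (SE 0.18) and 0.05 (SE 0.17). Nfkbiz, for the nuclear IκB protein IκBζ, gained a peak 157.6 kb away (chr16:55484199-55484891), by 1.35 (SE 0.32, adjusted p = 0.000638) in AThi and 1.28 (SE 0.31, adjusted p = 0.00141) in ATlo. Its strongest promoter peak (level 501) had -0.12 and -0.26. Of the 29 other peaks of the IκB genes 2 were called higher in each comparison, where 7.53% (AThi) and 7.09% (ATlo) of all other peaks were.

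None of the 5 promoter peaks of the Toll-like receptors, their adaptors and kinases was called in either old fraction. Of all promoter peaks 7.08% were called higher and 4.42% lower in AThi, and 5.67% and 5.95% in ATlo. With only 5 peaks, no call is near those shares. The median of the 5 genes with a promoter peak was -0.20 in AThi and -0.12 in ATlo in the authors' deposited tables, with Tlr2 at 0.00 and 0.07 and Tlr4 at -0.23 and -0.12. Tlr2 encodes a receptor for bacterial lipoproteins and Tlr4 the receptor for lipopolysaccharide. The adaptors had -0.17 and -0.21 (Myd88) and -0.23 and -0.12 (Ticam1), and the kinase gene Irak2 had -0.20 and -0.39. Irak4, for the kinase that MyD88 recruits first, had no promoter peak, and its strongest peak, 21.2 kb from the start (level 221.8), had 0.16 (SE 0.16) and 0.32 (SE 0.15). Distal peaks of both receptors did change. Of the group's 32 other peaks 3 were called higher and 1 lower in AThi, and 2 higher and 0 lower in ATlo. Of all other peaks 7.53% were called higher and 2.14% lower in AThi, and 7.09% and 1.38% in ATlo. A peak 62.9 kb upstream of Tlr2, in intron 31 of Tmem131l (chr3:83811785-83812334), rose by 1.38 (SE 0.34, adjusted p = 0.00103) in AThi and by 1.80 (SE 0.32, adjusted p = 1.61e-06) in ATlo. A weak peak 13.1 kb from the Tlr2 start (level 8.31) rose by 1.83 (SE 0.61, adjusted p = 0.0310) in AThi and had 1.64 (adjusted p = 0.0642) in ATlo. Of the peaks near Tlr4, the one 369.3 kb away rose by 0.93 (adjusted p = 0.00767) and 0.89 (adjusted p = 0.0107), and the one 100.0 kb away fell by 1.07 (SE 0.36, adjusted p = 0.0309) in AThi and had -0.31 (adjusted p = 0.620) in ATlo.

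The 10 genes of the TRAF, cIAP, RIPK1 and Bcl10-Malt1 group held 16 of the 69 member promoter peaks. Of these 16, 2 were called lower in AThi and 3 in ATlo, where 4.42% and 5.95% of all promoter peaks were. Birc3 encodes cIAP2, a ubiquitin ligase at the TNF receptor, and its promoter peak (chr9:7872256-7873362, level 246) fell by 0.49 (SE 0.16, adjusted p = 0.0289) in AThi and 0.45 (SE 0.16, adjusted p = 0.0471) in ATlo in the authors' deposited tables. Ripk1, for the scaffold kinase that these ligases modify, fell by 0.39 (SE 0.13, adjusted p = 0.0390) and 0.38 (SE 0.13, adjusted p = 0.0401) at chr13:34185881-34187305 (level 350). Both genes lost these calls when counted from the median of all peaks, with adjusted p = 0.0545 and 0.0749 for Birc3 and 0.0803 and 0.0712 for Ripk1. Bcl10, an adaptor that binds Malt1, fell by 0.58 (SE 0.16, adjusted p = 0.00732) in ATlo at chr3:145629490-145630832 (level 520) and had -0.45 (SE 0.16, adjusted p = 0.0580) in AThi. Its partner, the paracaspase gene Malt1, had the strongest promoter of the set at 673, with -0.28 and -0.39, not called. Birc2, for cIAP1, had -0.26 and -0.27, and the promoters of Traf2, Traf3, Traf5 and Traf6 lay between -0.44 and -0.15. Traf1, itself a known NF-κB target, had 0.19 and 0.24. The peaks used for Traf1 and Traf3 lay 1093 and 1304 bp from the start and not at it.

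Away from promoters Traf1, Traf3 and Traf5 each lost a peak's accessibility, and Traf2 and Bcl10 gained at one. Of the group's 45 other peaks 2 were called higher and 3 lower in AThi, and 1 higher and 3 lower in ATlo. Of all other peaks 7.53% were called higher and 2.14% lower in AThi, and 7.09% and 1.38% in ATlo. A distal peak 15.3 kb upstream of Traf1 (chr2:34867046-34867585, level 15.4) fell by 1.83 (SE 0.56, adjusted p = 0.0159) in AThi and by 2.05 (SE 0.55, adjusted p = 0.00525) in ATlo in the authors' deposited tables. A peak 5.8 kb upstream of Traf3, in exon 4 of 4930595D18Rik (chr12:111126160-111127041), fell by 0.64 (adjusted p = 0.0189) and 0.63 (adjusted p = 0.0196), each with an SE of 0.20. In intron 1 of Traf5 (chr1:191762464-191763466) the change was a fall of 0.53 (SE 0.16, adjusted p = 0.0139) in AThi and -0.35 (adjusted p = 0.142) in ATlo. In the 5′ UTR of Traf5 (chr1:191754305-191755584) it was -0.16 (adjusted p = 0.652) in AThi and a fall of 0.56 (SE 0.17, adjusted p = 0.0191) in ATlo. Gains were seen at a peak in exon 4 of Ddah1, 70.8 kb upstream of Bcl10 (chr3:145558379-145559207), by 0.87 (adjusted p = 0.000162) and 0.72 (adjusted p = 0.00355), each with an SE of 0.19. In intron 4 of Traf2, an adaptor of TNF receptors (chr2:25424198-25424880, level 39.5), accessibility rose by 1.20 (SE 0.26, adjusted p = 0.000158) in AThi and had 0.23 (SE 0.28, adjusted p = 0.707) in ATlo.

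Among the kinase genes distal peaks were called at Map3k7, Tbk1, Ikbkb, Ikbke and Tab2, and the promoters of the TAK1-binding proteins fell in ATlo. Of the group's 84 other peaks 6 were called higher and 4 lower in AThi, and 7 higher and 1 lower in ATlo, in the authors' deposited tables. The gains are near the shares of all other peaks called higher (7.53% and 7.09%), and of all other peaks 2.14% and 1.38% were called lower. Of the group's 10 promoter peaks 0 were called lower in AThi and 2 in ATlo, where 4.42% and 5.95% of all promoter peaks were. Tab2 and Tab1 encode the adaptors that bring TAK1 to ubiquitin chains or activate it. The Tab2 promoter (chr10:7830935-7832636, level 277) fell by 0.56 (SE 0.17, adjusted p = 0.0171) in ATlo and had -0.34 (SE 0.17, adjusted p = 0.213) in AThi. The Tab1 promoter (chr15:80017096-80018471, level 242) fell by 0.52 (SE 0.18, adjusted p = 0.0417) in ATlo, a call lost when counted from the median of all peaks (adjusted p = 0.0640), and had -0.29 (SE 0.18, adjusted p = 0.353) in AThi. Map3k7, for TAK1 itself, had -0.41 (SE 0.16, adjusted p = 0.0904) and -0.45 (SE 0.16, adjusted p = 0.0518) at its promoter. The IκB kinase genes Chuk and Ikbkb had promoter changes of -0.06 and -0.25, and -0.24 and -0.11. Map3k14, for the NF-κB-inducing kinase NIK, had -0.13 and -0.35, Tbk1 -0.30 and -0.47, and Ikbke 0.08 and 0.17, none of them called.

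Outside promoters 7.53% (AThi) and 7.09% (ATlo) of all peaks were called higher. Map3k7 had 4 gains among 30 such peaks in each old fraction. The strongest lay 215.5 kb downstream of its start (chr4:32179625-32180337, level 67.2), with a rise of 1.79 (3.46-fold, SE 0.23, adjusted p = 5.99e-12) in AThi and 1.39 (2.62-fold, SE 0.24, adjusted p = 5.14e-07) in ATlo in the authors' deposited tables. Another at 226.2 kb rose by 1.39 and 1.36, one in intron 13 of Map3k7 by 0.93 and 0.94, and one 538.5 kb upstream by 1.17 and 1.28, with adjusted p from 0.00364 to 0.0335. A weak peak at 200.8 kb (level 11.8) went the other way, falling by 1.80 (SE 0.61, adjusted p = 0.0330) in AThi, with -0.32 (SE 0.45, adjusted p = 0.746) in ATlo. Tbk1 encodes the IKK-related kinase of the interferon branch, and its intron 7 peak (chr10:121400334-121401091, level 55.2) rose by 1.54 (2.90-fold, SE 0.24, adjusted p = 1.27e-08) in AThi and by 1.45 (2.73-fold, SE 0.23, adjusted p = 9.26e-08) in ATlo. Its intron 2 peak, 3.4 kb from the start, fell by 0.64 (SE 0.21, adjusted p = 0.0265) in AThi and had -0.37 (adjusted p = 0.257) in ATlo. In exon 5 of Ikbkb (chr8:23180600-23181211) accessibility rose by 1.33 (SE 0.38, adjusted p = 0.00760) and 1.39 (SE 0.37, adjusted p = 0.00371). A peak assigned to Ikbke in intron 16 of Srgap2 had 0.93 (adjusted p = 0.148) in AThi and rose by 1.22 (SE 0.40, adjusted p = 0.0287) in ATlo. Of the Tab2 peaks, the one 110.6 kb upstream fell by 0.74 (adjusted p = 0.0347, or 0.0520 from the median of all peaks) and 1.01 (adjusted p = 0.00142), each with an SE of 0.25, and the one in intron 7 of Ust fell by 0.60 (SE 0.16, adjusted p = 0.00366) in AThi and had -0.39 (adjusted p = 0.0891) in ATlo.

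Among the 4 genes of ubiquitin-editing enzymes and their binding partners, Tnfaip3 and Cyld changed and Tnip1 and Tnip2 were not called. Of the group's 6 promoter peaks 1 was called higher and 1 lower in each comparison. Of all promoter peaks 7.08% were called higher and 4.42% lower in AThi, and 5.67% and 5.95% in ATlo. Tnfaip3 encodes A20, which takes activating ubiquitin chains off pathway proteins, and its main promoter peak (chr10:18890154-18891673, level 263) fell by 0.68 (SE 0.18, adjusted p = 0.00303) in ATlo in the authors' deposited table and had -0.37 (SE 0.18, adjusted p = 0.189) in AThi. A second, weaker Tnfaip3 promoter peak 2919 bp from the start (chr10:18884179-18884792, level 37.3) rose by 0.95 (SE 0.28, adjusted p = 0.0121) in AThi and by 1.13 (SE 0.27, adjusted p = 0.000887) in ATlo. It lies beyond 1 kb, so with promoters drawn at that limit no member promoter was called higher. Cyld, a deubiquitinase that also restrains the pathway, fell by 0.42 (SE 0.15, adjusted p = 0.0450, or 0.0857 counted from the median of all peaks) in AThi at chr8:89423036-89424572 (level 494) and had -0.37 (SE 0.15, adjusted p = 0.0831) in ATlo. The promoters of Tnip1 and Tnip2, whose products bind A20, had -0.12 and -0.07, and 0.21 and 0.08. None of the 19 other peaks of this group was called. Of all other peaks 7.53% were called higher and 2.14% lower in AThi, and 7.09% and 1.38% in ATlo. With only 19 peaks, no call is not far from those shares.

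Of the TNF-related genes and targets, Icam1 had a lower promoter in AThi and Tnfaip8 in ATlo. This was 1 of the group's 13 promoter peaks in each comparison, where 4.42% (AThi) and 5.95% (ATlo) of all promoter peaks were called lower. Icam1 encodes an adhesion molecule on the cell surface, and its promoter (chr9:20926008-20927461, level 221) fell by 0.50 (SE 0.16, adjusted p = 0.0210) in AThi and had -0.41 (SE 0.15, adjusted p = 0.0667) in ATlo in the authors' deposited tables. Tnfaip8 had 6 promoter peaks, and the one at chr18:50161062-50161894 (level 299) fell by 0.52 (SE 0.14, adjusted p = 0.00436) in ATlo and had -0.26 (adjusted p = 0.264) in AThi. Its strongest promoter peak (level 329) had -0.33 and -0.50, not called, and a peak in intron 1 rose by 1.07 (adjusted p = 0.000680) and 1.05 (adjusted p = 0.000779), each with an SE of 0.25. Tnf itself had the weakest main promoter peak of the set (level 62.6, 1130 bp from its start), at -0.42 (SE 0.28, adjusted p = 0.377) and -0.59 (SE 0.27, adjusted p = 0.173). Tnfaip2 had -0.01 and -0.10 at its promoter, and a peak 4.5 kb upstream of it fell by 0.70 (SE 0.24, adjusted p = 0.0421, or 0.0634 from the median of all peaks) in AThi and had -0.46 (adjusted p = 0.222) in ATlo.

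**Figure D4:**
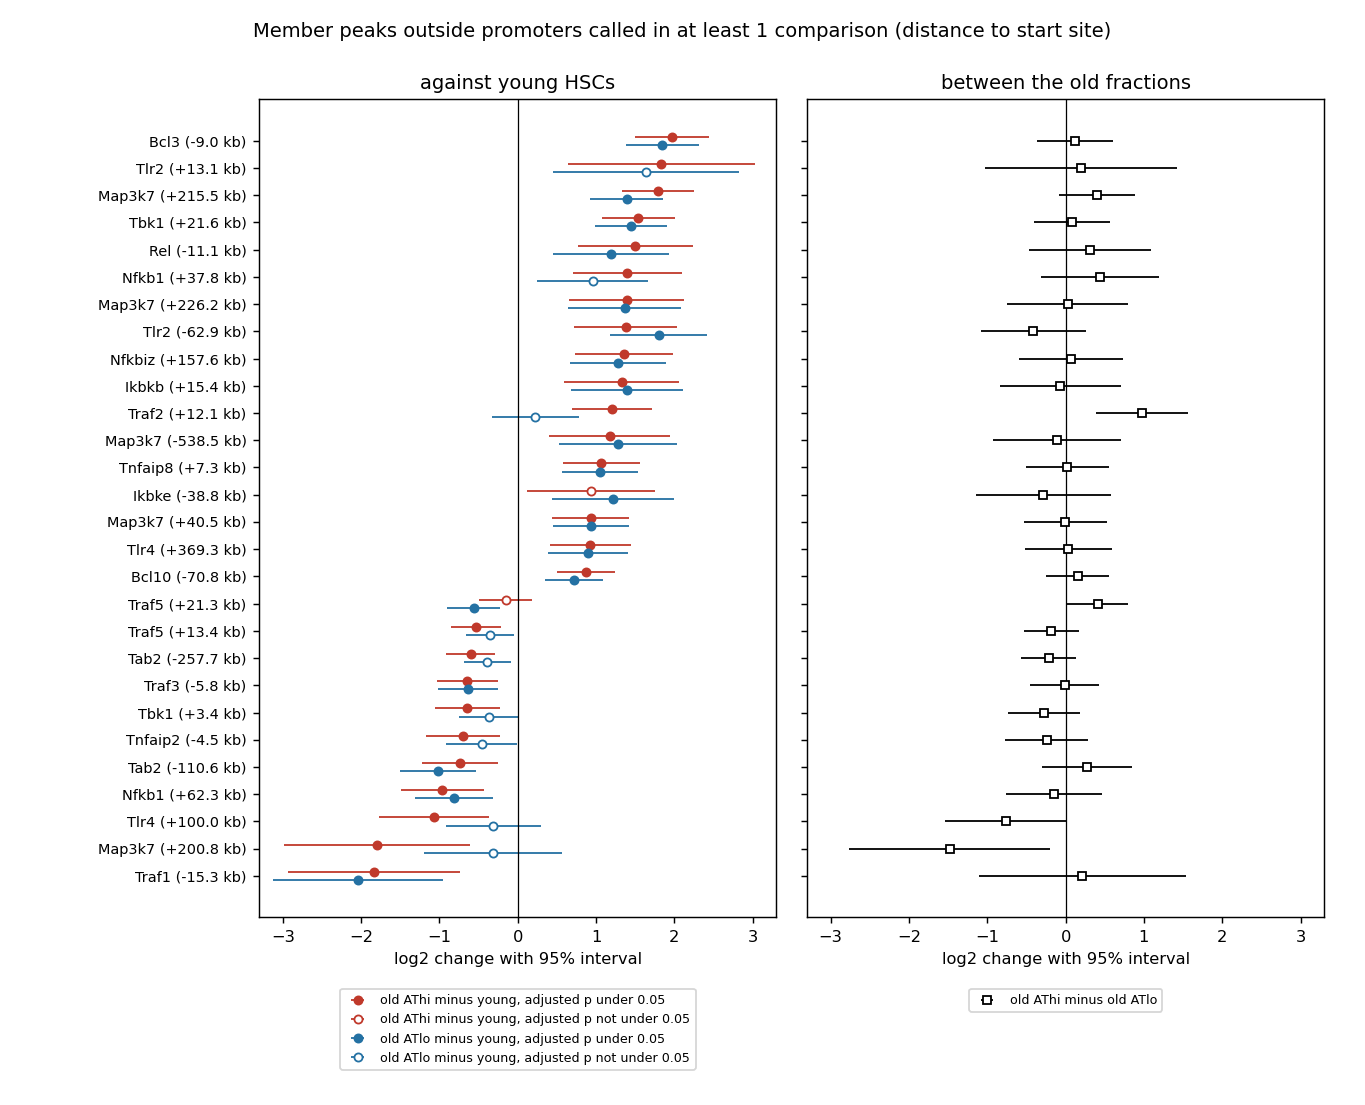
Left, log2 change against young HSCs with 95% intervals (x axis) at the member peaks outside promoters that were called in at least 1 comparison, named by the assigned gene and the distance to its start (y axis), for old AThi (red) and old ATlo (blue), filled where called. Right, the difference between the old fractions at the same peaks. The gains at Bcl3, Map3k7 and Tbk1 lie far right of 0 in both fractions, and the Traf2 peak, with a difference of 0.98, has the smallest p between the fractions.

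The comparison of the old fractions with each other asks whether NF-κB genes differ in accessibility with autophagy status at one age. None of the 324 member peaks was called, as in the series as a whole (0% of 94410 peaks, DESeq2's Wald test, every adjusted p = 0.999998). At an unadjusted p under 0.05 there were 10 member peaks (3.09%), against 1683 peaks in all (1.78%), in the authors' deposited table. The smallest p was at the intron 4 peak of Traf2, higher in AThi by 0.98 (SE 0.30, 95% interval 0.39 to 1.57, unadjusted p = 0.00114). Next among peaks higher in AThi came one assigned to Ikbke in exon 14 of Srgap2 (1.22, SE 0.56, unadjusted p = 0.0309) and the 5′ UTR peak of Traf5 (0.41, SE 0.20, unadjusted p = 0.0392). Higher in ATlo were a peak 71.5 kb from Malt1 (-0.72, SE 0.30, unadjusted p = 0.0172), the peak 200.8 kb from Map3k7 (-1.48, SE 0.66, unadjusted p = 0.0241) and one in exon 9 of Traf1 (-0.45, SE 0.22, unadjusted p = 0.0386). None of these 6 passed the adjusted threshold.

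The intervals say how large a difference could have been missed. At the strongest promoter peaks, all 42 intervals of the AThi minus ATlo difference included 0 and all lay within 1 log2 unit of it, with half-widths of 0.289 to 0.614 (median 0.355). Among the 39 member peaks called against young in at least 1 fraction, 36 differed between fractions by less than 0.5, and the median absolute difference was 0.188. Their half-widths ran from 0.289 to 1.32 (median 0.528), so at many distal peaks a difference of that size was not detectable with 3 libraries a group. The old libraries come in 3 labelled pairs, each with 1 AThi and 1 ATlo library, and the sources used here do not say whether the deposited SEs take the pairs into account. For 3 of the 39 the unadjusted p was under 0.05, where 1.78% of all peaks had one. These 39 were picked by their calls against young HSCs, and the AThi minus ATlo value is the difference of those changes. The choice of peaks therefore bears on the values at the 39, and they are no test of the fractions. A call in 1 old fraction and not in the other, as at Tnfaip3, Tab2, Cyld or Icam1, does not by itself show that the fractions differ or that they are alike. At the main Tnfaip3 promoter peak the AThi minus ATlo value was 0.32 (SE 0.20, 95% interval -0.07 to 0.70, unadjusted p = 0.104) in the authors' deposited table.

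A further 48 genes of the same pathway, such as other Toll-like receptors, their co-receptors and the linear ubiquitin ligase, were listed beside the set. All but Irak1, Irak3 and Rnf31 had a peak, 217 in all. Of 58 promoter peaks 0 were called higher and 4 lower in AThi, and 0 and 3 in ATlo, in the authors' deposited tables. Of all promoter peaks 7.08% were called higher and 4.42% lower in AThi, and 5.67% and 5.95% in ATlo. Of 159 other peaks 10 were called higher and 5 lower in AThi, and 9 and 4 in ATlo. Of all other peaks 7.53% and 2.14% were in AThi, and 7.09% and 1.38% in ATlo, so the gains (6.29% and 5.66%) were near the share of all. In AThi small p-values were found in exon 10 of Card10 (a rise of 1.23, SE 0.21, adjusted p = 4.12e-07), 230.1 kb upstream of Tank (2.13, SE 0.37, adjusted p = 4.21e-07) and near Nkiras2 in exon 8 of Zfp385c (1.26, SE 0.28, adjusted p = 0.000166). In ATlo they were at the same Card10 (1.27, SE 0.21, adjusted p = 1.16e-07) and Tank (1.88, SE 0.36, adjusted p = 1.84e-05) peaks, and 234.1 kb upstream of Irak1bp1 (2.85, SE 0.58, adjusted p = 4.76e-05).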

How the data were processed

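ATAC-seq results on 94410 peaks were deposited as 3 tables, 1 per pair of groups, with 0 columns of values per library. Per the submitters' processing notes, reads went through Trim Galore, cutadapt and BWA, and MACS2, ChIPseeker, featureCounts and DESeq2 are named too, with no versions or settings. The sources used here do not say how reads were shifted and filtered or peaks merged, which sets where peaks lie. The authors' deposited level of a peak is a signal, the normalised count averaged over all libraries. The authors' deposited log2 changes carry SEs, and the deposited Wald statistic is a score, the change over its SE. The authors' deposited p-values, raw and adjusted, were taken without change. No adjusted p was given for 4 member peaks (1831 in all), which were not called.

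The design assumed counts per library where deposited. As there were none, the authors' DESeq2 tests over all peaks were read and only member rows reported. Intervals of 95% are 1.96 SE, and depth per library could not be assessed. The processing notes name GRCm38 and mm39. Peaks were taken as mm39, as 0 of 43 members (273 of 20791 genes) ended at the same base in RefSeq GRCm38.p6, whose promoter windows were matched by symbol alone. Values were computed with pandas 2.3.3, numpy 2.4.6 and scipy 1.17.1, and recomputed Wald p-values and calls were tested on simulated data. Named are all called member promoter peaks, the 15 other called peaks with the smallest p per direction (the 1 further AThi gain, 538.5 kb from Map3k7, was added after its value was seen), the 3 smallest p per direction between the old fractions and the 4 smallest of the other pathway genes per comparison with young, of which 1 gene is not reported here. The members, lists and rules were chosen with earlier results of these data known.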

Additional observations from a re-analysis of the deposited data

How the results depend on the processing

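The scaling mattered most. Counted from the median of the strongest 10% of promoter peaks (a shift of -0.22 in AThi and -0.30 in ATlo), member promoter peaks called higher became 4 and lower 0 in AThi, and 4 and 0 in ATlo. Of all promoter peaks 12.8% were then called higher and 0.77% lower in AThi, and 14.5% and 0.24% in ATlo. Other member peaks became 25 higher and 2 lower in AThi, and 42 and 2 in ATlo. Of all other peaks 13.2% and 0.89% were in AThi, and 17.1% and 0.35% in ATlo. The members' shares called higher, 5.80% of promoter peaks in each and 9.80% and 16.5% of other peaks, were not above those of all. The share of member calls that were higher moved from 53.1% to 93.5% in AThi and from 53.6% to 95.8% in ATlo, and that of all calls from 73.4% to 93.8% and from 73.0% to 98.1%. Counted from the median of all peaks, member promoter peaks called lower became 2 in AThi and 5 in ATlo, where 3.03% and 4.06% of all promoter peaks were. With promoters drawn at 1 kb, 0 of 54 were called higher in either comparison, where 7.33% (AThi) and 5.75% (ATlo) of all were. Within 100 kb of a start 9 of 208 other member peaks were called higher in ATlo, where 7.09% of all other peaks at any distance were. The other counts stayed within 1.5 times their value. Of 60 called values named, 52 kept their call from the median of all peaks and 36 from the strongest 10%, all with the same sign. The latter reference can only strengthen a rise. Why the scalings differ was not tested.

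No paired analysis was possible because the tables hold no value per library. Fits that leave out a library, use edgeR or set other size factors were not run for the same reason.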
